A study of Rattus norvegicus with 8 samples.

Results

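The genes described are those that make, break down and read out the second messenger cyclic AMP: adenylyl cyclases, cyclic nucleotide phosphodiesterases, and the subunits and inhibitor peptides of protein kinase A (PKA). Members were taken by name alone, as every probe set whose only gene symbol in the array's annotation was an Adcy gene with a number, a Pde gene, a Prkac or Prkar gene, Pkia, Pkib or Pkig. This gave 61 of the 31042 probe sets that are not controls, standing for 41 of 14217 named genes, and 3 further probe sets that pair a member symbol with another gene were left out. The arrays hold RNA of dissected frontal cortex from male Sprague-Dawley rats, an outbred strain, weighing about 200 g at the start. Animals were assigned at random, 20 to each treatment, to injection into the peritoneum of olanzapine at 2 mg/kg per day or of saline, for 21 days. Olanzapine is an antipsychotic that blocks dopamine, serotonin, muscarinic and histamine receptors. Arrays were made for 4 animals of each group, and each is named here by treatment and animal number. No genetic change is named for either group, the vehicle is given only as saline, and no age is stated in the labels. The values are linear intensities in arbitrary units, and levels of different probe sets are not compared, since each probe set binds with its own strength.

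Cyclic AMP is made from ATP by adenylyl cyclases, which G proteins switch on or off below receptors such as those for dopamine and serotonin. It binds the regulatory subunits of PKA and frees the catalytic subunits, which phosphorylate ion channels, receptors and the transcription factor CREB. The protein kinase inhibitor peptides bind free catalytic subunits, and phosphodiesterases end the signal by hydrolysing cyclic AMP, cyclic GMP or both. In frontal cortex the pathway is known for its part in working memory and in synaptic plasticity.

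No member differed between olanzapine and saline beyond the adjusted threshold. The test was limma's moderated linear model on log2(intensity + 63.4), fitted to the 18625 probe sets left by a filter on dim values, with Benjamini-Hochberg adjustment over all of them. Of the 61 members, 40 probe sets of 31 genes were left by the filter, and 0 of these 40 had an adjusted p under 0.05, where 0% of all tested probe sets did. At an unadjusted p under 0.05 there were 8 members, 3 higher and 5 lower in olanzapine, against 8.32% of all tested probe sets (4.59% higher and 3.73% lower). The 3 higher ones were the phosphodiesterase genes Pde2a, Pde1c and Pde8a. The 5 lower ones belonged to PKA: 1 probe set each of Pkia, Pkig and Prkacb and 2 of Prkar1a. After quantile normalization, which gives every array the same distribution of values, 4 members had such a p, against 6.36% of all tested probe sets. Of these, 3 were higher (Pde2a, Pde1c and Prkaca) and 1 lower (Pkia). The share higher was 75.0% (37.5% as deposited), beside 59.0% of all probe sets with such a p (55.1% as deposited). The member shares rest on 3 higher probe sets on each scale. Over the 40 members the median log2 difference was 0.0062, beside 0.027 over all tested probe sets, and 21 lay above 0.

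**Figure D1:**
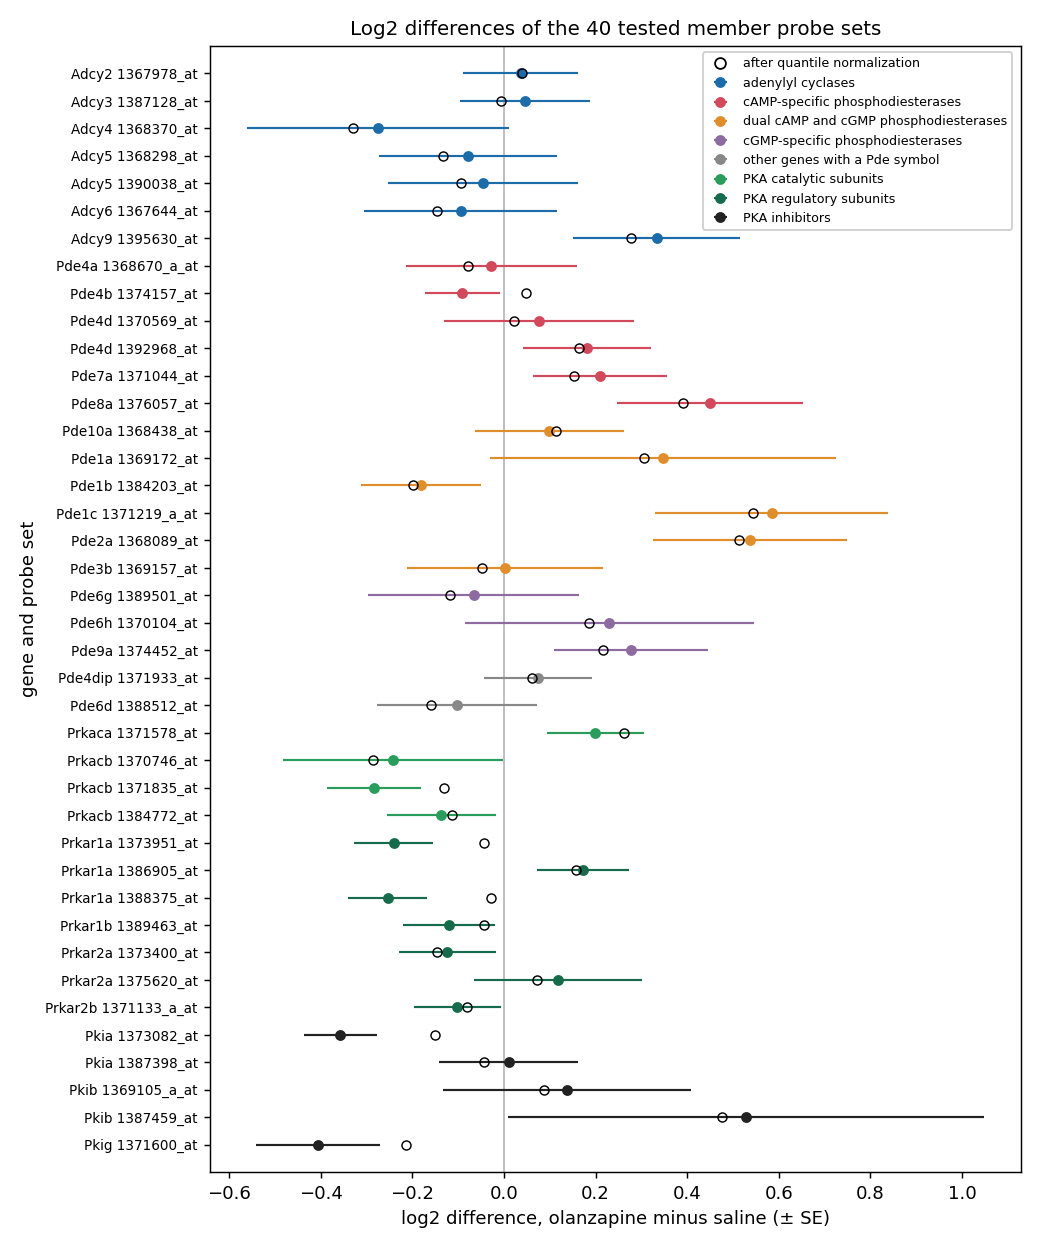
Log2 difference (olanzapine minus saline) on the horizontal axis for each of the 40 tested member probe sets, coloured by role, with filled points and bars for the difference as deposited ± SE (4 arrays per group) and open points for the difference after quantile normalization. The differences run from -0.41 for Pkig to 0.58 for Pde1c, and the 5 PKA probe sets with an unadjusted p under 0.05 (Pkig, 1 of Pkia, 1 of Prkacb and 2 of Prkar1a) lie nearer 0 after quantile normalization.

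Brightness went with the direction. Among the brightest 5% of probe sets on the array, 80.4% of 1553 had a difference below 0, with a median of -0.11, and 25.9% had an unadjusted p under 0.05 in the lower direction against 1.35% in the higher one. After quantile normalization that median was 0.00068, and 10.9% had such a p in either direction. All 5 lower members were in this bright set, together with Prkaca, Prkar1b and Pde4b. Its 8 members had a median of -0.25 as deposited and -0.044 after quantile normalization. The other 32 members had a median of 0.060 (0.031 after quantile normalization), beside 0.043 for all other tested probe sets. The part of brightness in the PKA differences was not tested, so values after quantile normalization stand beside them below.

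**Figure D2:**
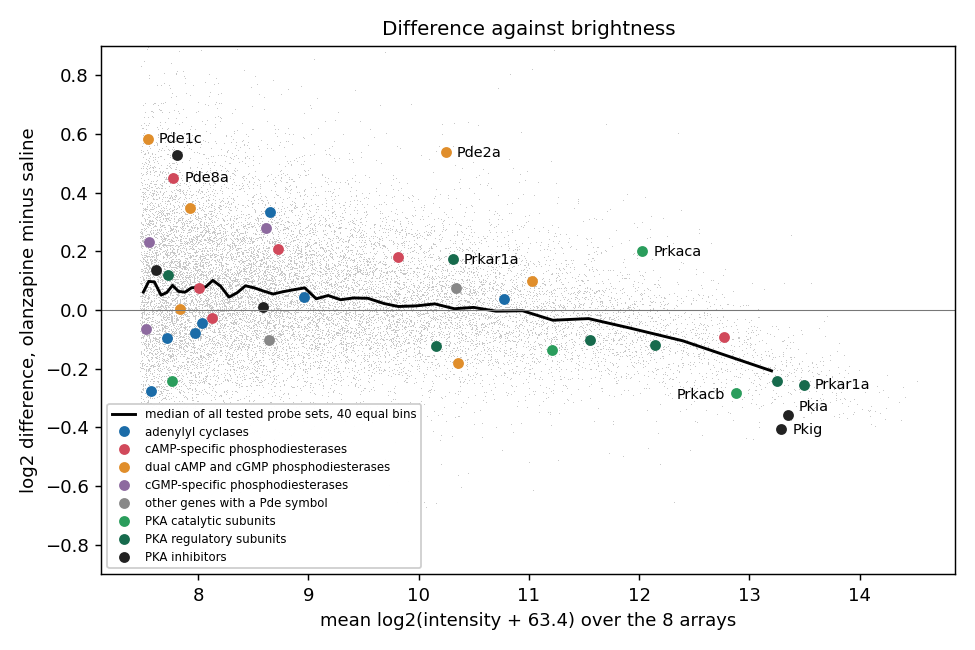
Log2 difference (olanzapine minus saline) on the vertical axis against mean log2(intensity + 63.4) over the 8 arrays on the horizontal axis, with all 18625 tested probe sets in grey (those beyond 0.9 in either direction lie off the plot), their median in 40 equal bins as a line, and the 40 members as coloured points. The line falls below 0 at the bright end, where Pkia and Pkig lie under it and Prkaca lies above it. Labels name members with non-overlapping groups or an unadjusted p under 0.08, once per gene and direction.

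The tested adenylyl cyclase probe sets differed by no more than 0.33 in either direction. Of 10 probe sets for 8 genes, 7 were tested, with 3 above 0, 4 below 0, a median of -0.045 and 0 at an unadjusted p under 0.05. Adcy9, a cyclase that forskolin activates poorly, was at 381, 310, 251 and 253 in saline 14, 15, 17 and 19 and at 269, 451, 478 and 387 in olanzapine 9, 14, 18 and 19. Olanzapine 9 lay within the saline values and olanzapine 14, 18 and 19 above all of them, a difference of 0.33 (SE 0.18, limma adjusted p = 0.682). Adcy2, a cyclase that G protein beta-gamma subunits stimulate, had a mean of 1682 ± 315 (SD, n = 4) in saline and of 1710 ± 146 (SD, n = 4) in olanzapine, with a difference of 0.036.

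Both tested probe sets of Adcy5, the main cyclase of the striatum, differed by little: -0.079 (SE 0.19) and -0.045 (SE 0.21). Adcy3, known from olfactory neurons and neuronal cilia, differed by 0.046 (SE 0.14), and the sign turned after quantile normalization (-0.0057). Adcy6, which calcium inhibits like Adcy5, differed by -0.095 (SE 0.21). Its second probe set, just under the filter's limit, was not tested. That probe set was at 91.2 ± 18.4 in saline and at 143 ± 45.4 in olanzapine, and the groups overlapped. Adcy4 was lowest in olanzapine 19, at 45.1, and highest in saline 19, at 232, and differed by -0.27 (SE 0.29). Without olanzapine 19 its difference was -0.051 and without saline 17 it was -0.45. Adcy8, a cyclase stimulated by calcium and calmodulin, was dim on every array, at 7.18 to 17.1, and was not tested. Adcy1 and Adcy7 were not analysed here.

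Of the phosphodiesterase genes none passed the adjusted test. Leaving aside 3 genes whose Pde symbol does not stand for a cyclic nucleotide phosphodiesterase (Pde4dip, Pde6d and Pde12), 15 probe sets of 14 genes were tested. These count Pde6g (-0.066) and Pde6h (0.23), genes of inhibitory and not catalytic subunits of the photoreceptor enzyme. Of the 15, 11 (73.3%) had a difference above 0 as deposited, against 56.0% of all tested probe sets. The share was 59.3% among tested probe sets outside the brightest 5%, where 14 of the 15 lie. After quantile normalization 11 were again above 0, and 10 were so on both scales, since Pde4b and Pde3b turned sign. Their median was 0.18 as deposited and 0.15 after quantile normalization, beside 0.027 and 0.0051 over all tested probe sets. The 3 with an unadjusted p under 0.05 (20% of 15, against 8.32% of all) were all higher.

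Pde2a, a phosphodiesterase that cyclic GMP stimulates and that hydrolyses both messengers, was at 902, 516, 1158 and 1455 in saline 14, 15, 17 and 19. In olanzapine 9, 14, 18 and 19 it was at 1369, 1448, 1367 and 1422. The olanzapine arrays were close together, the saline arrays were spread (SD 398, n = 4), and saline 19 lay above all olanzapine arrays. The difference was 0.54 (SE 0.21, limma adjusted p = 0.518), 1.45-fold on the log2 scale used, and 0.51 after quantile normalization. Without saline 15, the lowest array, it was 0.27, with an unadjusted limma p of 0.0648.

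Pde1c, a calmodulin-dependent enzyme, was at 47.3, 80.3, 78.7 and 174 in saline 14, 15, 17 and 19 and at 174, 112, 179 and 206 in olanzapine 9, 14, 18 and 19. Saline 19 stood apart from the other saline arrays, at the level of the olanzapine group. The difference of 0.58 (SE 0.25, limma adjusted p = 0.555) came from a probe set near the filter's limit. When 1 array was left out it ran from 0.43 to 0.80, and the largest unadjusted limma p was 0.116, without saline 14. The second Pde1c probe set was dimmer and was not tested, at 52.8 ± 25.5 in saline and 46.2 ± 5.97 in olanzapine.

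Pde8a, a high-affinity phosphodiesterase specific for cyclic AMP, was at 152, 122, 84.9 and 144 in saline 14, 15, 17 and 19 and at 182, 243, 201 and 152 in olanzapine 9, 14, 18 and 19. The groups did not overlap, by a narrow margin between saline 14 and olanzapine 19. The difference was 0.45 (SE 0.20, limma adjusted p = 0.572) and 0.39 after quantile normalization. Of the 40 members 4 had groups that did not overlap, 2 higher and 2 lower, against 4.47% of all tested probe sets (2.40% higher and 2.07% lower). The 2 lower ones, of Pkia and Prkar1a, were among the brightest 5% of probe sets. There the groups of 210 of 1553 (13.5%) did not overlap, 202 of them lower and 8 higher. A second, dimmer probe set of Pde8a was at 91.7 ± 29.7 in saline and 70.8 ± 47.7 in olanzapine and was not tested.

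Of the Pde4 family, whose members are specific for cyclic AMP, the brightest probe set of Pde4b was at 7139 ± 532 in saline and 6694 ± 341 in olanzapine, with a difference of -0.091 that turned to 0.049 after quantile normalization. Pde4d was at 1016, 686, 850 and 634 in the saline arrays and at 909, 896, 830 and 957 in the olanzapine arrays, inside the saline range, and differed by 0.18 (SE 0.14). Its second tested probe set differed by 0.077 and Pde4a by -0.028. Pde7a, another enzyme specific for cyclic AMP, was at 331 ± 43.7 in saline and 392 ± 39.1 in olanzapine, a difference of 0.21 (SE 0.15).

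The remaining dual enzymes and those for cyclic GMP did not differ beyond their spread. Pde10a, a gene best known from striatal medium spiny neurons and a target of experimental antipsychotics, was at 2060, 1323, 2484 and 2162 in the saline arrays and at 2074, 2219, 1707 and 2478 in the olanzapine arrays. Its groups overlapped over nearly their whole range, with a difference of 0.099 (SE 0.16). Pde1b, a calmodulin-dependent enzyme abundant in striatum, was at 1456, 1473, 1035 and 1416 in saline and at 1016, 1347, 1095 and 1236 in olanzapine, a difference of -0.18 (SE 0.13). Saline 17 alone lay among the olanzapine values. Without it the difference was -0.30, with an unadjusted limma p under 0.05.

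Pde1a was near 0 on 1 array only, 8.06 in saline 15 where saline 14, 17 and 19 were at 226 to 287, and its difference of 0.35 (SE 0.38) was -0.18 without that array. Pde9a, a cyclic GMP enzyme, was at 298 ± 74.9 in saline and 368 ± 27.6 in olanzapine, a difference of 0.28 (SE 0.17) that was 0.16 without saline 17. Pde3b, known from insulin signalling, differed by 0.0021. The photoreceptor genes Pde6g and Pde6h were close to the filter's limit and differed by -0.066 and 0.23, with standard errors of 0.23 and 0.32. Pde4dip, which encodes the centrosomal and Golgi scaffold myomegalin, differed by 0.074, and Pde6d, which encodes a carrier of prenylated proteins, by -0.10.

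**Figure D3:**
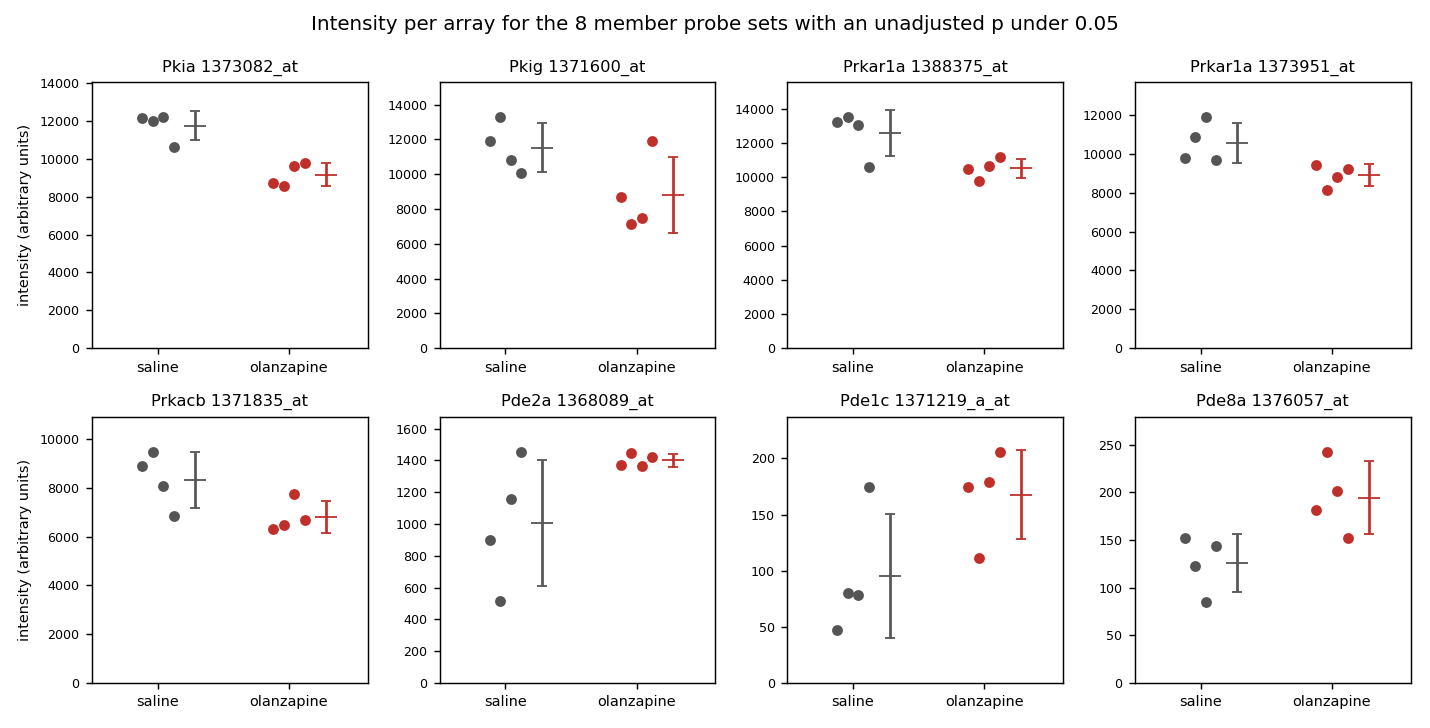
Intensity in arbitrary units for the 8 member probe sets with an unadjusted p under 0.05, 1 point per array (grey for saline, red for olanzapine), with the mean and SD of each group of 4 beside the points and the vertical axes starting at 0. Only Pkia 1373082_at, Prkar1a 1373951_at and Pde8a show groups that do not overlap. Saline 19 lies nearest to or within the range of the olanzapine values in every panel but Pde8a, and in Pkig saline 14 and 17 lie within it too.

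Of 16 tested probe sets of PKA subunit and inhibitor genes 6 lay above 0, with a median of -0.12 as deposited and -0.044 after quantile normalization. The differences of the catalytic subunit genes had opposite signs, and none passed the adjusted test. Prkaca, the gene of the catalytic alpha subunit, was at 3397, 4207, 3697 and 4101 in saline 14, 15, 17 and 19 and at 3868, 4064, 4743 and 5100 in olanzapine 9, 14, 18 and 19. Olanzapine 18 and 19 lay above every saline array, and the difference was 0.20 (SE 0.11, limma adjusted p = 0.663) as deposited and 0.26 (SE 0.10, adjusted p = 0.753) after quantile normalization. Without olanzapine 19 it was 0.13.

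Prkacb, the gene of the catalytic beta subunit, was at 8896, 9493, 8083 and 6869 in the saline arrays and at 6303, 6483, 7772 and 6676 in the olanzapine arrays by its brightest probe set. Saline 19 fell among the olanzapine values, and the difference was -0.28 (SE 0.10, limma adjusted p = 0.493) as deposited and -0.13 after quantile normalization. The other tested probe sets of Prkacb, 1384772_at and 1370746_at, differed by -0.14 (SE 0.12) and -0.24 (SE 0.24), and by -0.11 and -0.29 after quantile normalization. These values moved with single arrays, and neither turned sign when 1 array was left out. Without saline 17, at 314 in 1370746_at where the other saline arrays were at 103 to 184, the difference of that probe set was -0.016. By 1384772_at the difference was -0.070 without saline 14 and -0.24 without saline 15. The log2 ratio of Prkaca to this bright Prkacb probe set ran from -1.37 to -0.74 in saline and from -0.70 to -0.38 in olanzapine. These ranges did not overlap, nor did those after quantile normalization, -1.31 to -0.75 and -0.74 to -0.39, which lay close to each other. The shift of the mean ratio was 0.48 as deposited and 0.39 after quantile normalization. It is given as a description with no test, because the pair was picked after its values were seen.

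The promoter windows of these 2 genes are shown because the signs of their differences were opposite, although neither gene passed the adjusted test, with the core letters of the cyclic AMP response element, TGACG on either strand, in capitals. They come from RefSeq on the GRCr8 build and run 5′ to 3′ on the gene's strand, 250 bases before the start and 50 after it. Prkaca lies on the minus strand at chr19:41083140-41083439 and Prkacb on the minus strand at chr2:238386266-238386565.
Prkaca: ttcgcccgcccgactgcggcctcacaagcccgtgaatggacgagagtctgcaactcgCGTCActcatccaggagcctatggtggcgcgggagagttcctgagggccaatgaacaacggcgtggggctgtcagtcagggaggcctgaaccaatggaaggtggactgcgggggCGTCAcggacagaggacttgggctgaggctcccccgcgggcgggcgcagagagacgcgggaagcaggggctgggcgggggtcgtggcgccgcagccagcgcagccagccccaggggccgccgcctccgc
Prkacb: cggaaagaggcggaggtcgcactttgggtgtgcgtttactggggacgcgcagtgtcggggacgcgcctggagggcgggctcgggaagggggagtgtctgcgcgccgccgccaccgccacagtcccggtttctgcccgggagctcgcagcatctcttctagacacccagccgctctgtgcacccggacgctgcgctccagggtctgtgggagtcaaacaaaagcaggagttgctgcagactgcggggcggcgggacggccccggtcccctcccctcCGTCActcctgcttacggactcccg

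The Prkaca window held 2 matches and the Prkacb window 1. Windows were found by gene identifier for 28 of the 41 member genes, 42 windows in all, and 10 of these (23.8%) held the core letters, against 21.2% of 33469 windows of that length over all genes. The full palindrome TGACGTCA, which contains the core on both strands, was in 0 of the 42 and in 1.83% of all. A match describes these letters only.

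Regulatory subunits of PKA hold the kinase inactive until cyclic AMP binds. Prkar1a, the type I alpha gene, was at 9784, 10850, 11906 and 9712 in saline 14, 15, 17 and 19 and at 9441, 8146, 8811 and 9248 in olanzapine 9, 14, 18 and 19 by probe set 1373951_at. The groups did not overlap, and the difference was -0.24 (SE 0.09, limma adjusted p = 0.487) as deposited and -0.044 after quantile normalization. By probe set 1388375_at the values were 13226, 13516, 13023 and 10621 in saline and 10500, 9774, 10646 and 11150 in olanzapine. Saline 19 lay within the olanzapine range, and the difference of -0.25 (SE 0.09, limma adjusted p = 0.455) was -0.028 after quantile normalization. Without saline 19 it was -0.33 and passed the adjusted test (limma adjusted p = 0.0371), in a fit that called 107 probe sets in all, 96 of them lower.

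Another Prkar1a probe set, 1386905_at, outside the brightest 5%, went the other way. It was at 1127, 1034, 1162 and 1219 in saline and at 1249, 1360, 1257 and 1280 in olanzapine, so that the groups did not overlap. Its difference was 0.17 (SE 0.10, limma adjusted p = 0.710) and 0.16 after quantile normalization. The log2 gap between 1388375_at and 1386905_at was 3.40 ± 0.24 in saline and 2.97 ± 0.12 in olanzapine (SD, n = 4 each), a shift of -0.43 with an exact two-sided permutation p of 0.0571. After quantile normalization the shift was -0.19 (exact permutation p = 0.0857).

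The other regulatory genes differed little. Prkar1b, the neuronal type I beta gene, was at 4690 ± 674 in saline and 4281 ± 186 in olanzapine, a difference of -0.12 (SE 0.10) and of -0.044 after quantile normalization. Prkar2b, the type II beta gene of brain and fat, was at 3073 ± 321 in saline and 2851 ± 154 in olanzapine, a difference of -0.10 (SE 0.09), of -0.081 after quantile normalization and of -0.035 without saline 17. For Prkar2a, the type II alpha gene, 1373400_at differed by -0.12 (SE 0.11) and 1375620_at by 0.12 (SE 0.18), or -0.15 and 0.073 after quantile normalization, and a dimmer probe set was not tested. The log2 gap between 1373400_at and 1375620_at shifted by -0.24 as deposited and by -0.22 after quantile normalization (exact permutation p = 0.0571 for each).

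Pkia, the inhibitor peptide gene best known from brain and muscle, had the smallest p among the members. Its probe set 1373082_at was at 12193, 11989, 12221 and 10652 in saline 14, 15, 17 and 19 and at 8738, 8556, 9612 and 9771 in olanzapine 9, 14, 18 and 19. Every olanzapine array lay below every saline array, and saline 19 was the saline array closest to them. The difference was -0.36 (SE 0.08, limma adjusted p = 0.317), and after quantile normalization it was -0.15 (SE 0.05, adjusted p = 0.698). Without saline 19 it was -0.40 and passed the adjusted test (limma adjusted p = 0.0236), in the fit that called 107 probe sets, 96 of them lower. The 98th percentile of intensity was 5618 in saline 19, 6174 to 6287 in the other saline arrays and 5474 to 5735 in olanzapine. The part of this in the Pkia difference was not tested.

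The second tested Pkia probe set, 1387398_at, was dimmer, at 390, 303, 285 and 314 in saline and 373, 281, 319 and 328 in olanzapine, and differed by 0.010 (SE 0.15), or -0.043 after quantile normalization. The groups overlapped throughout. The log2 gap between the Pkia probe sets was 4.94 ± 0.18 in saline and 4.57 ± 0.16 in olanzapine, a shift of -0.37 (exact permutation p = 0.0286, the smallest that 70 assignments of the 8 arrays allow) and of -0.11 after quantile normalization (exact permutation p = 0.429). Such gaps were compared for 9 pairs, the brightest tested probe set of each of 7 genes against each of its others, and the smallest p adjusted over the 9 was 0.171. The remaining Pkia probe set was under the filter, at 30.7 to 184 over the 8 arrays.

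Pkig, the gamma inhibitor gene, was at 11902, 13293, 10826 and 10076 in the saline arrays and at 8676, 7159, 7497 and 11912 in the olanzapine arrays. Olanzapine 19 lay within the saline range and the other olanzapine arrays below it. The difference was -0.41 (SE 0.14, limma adjusted p = 0.445) as deposited, -0.21 after quantile normalization and -0.56 without olanzapine 19.

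Pkib, the beta inhibitor gene, varied more between animals of a group than between groups. By probe set 1387459_at it was at 229, 26.9, 44.0 and 365 in saline 14, 15, 17 and 19 and at 532, 96.7, 61.4 and 379 in olanzapine 9, 14, 18 and 19. Each group thus held a pair of arrays at 229 or more and a pair at 96.7 or less. The second Pkib probe set, 1369105_a_at, was also highest in olanzapine 9, olanzapine 19 and saline 19, at 267, 174 and 170. The differences between treatments were 0.53 (SE 0.52) and 0.14 (SE 0.27), or 0.48 and 0.088 after quantile normalization. Leaving out 1 array moved the former between 0.15, without olanzapine 9, and 0.93, without saline 19.

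**Figure D4:**
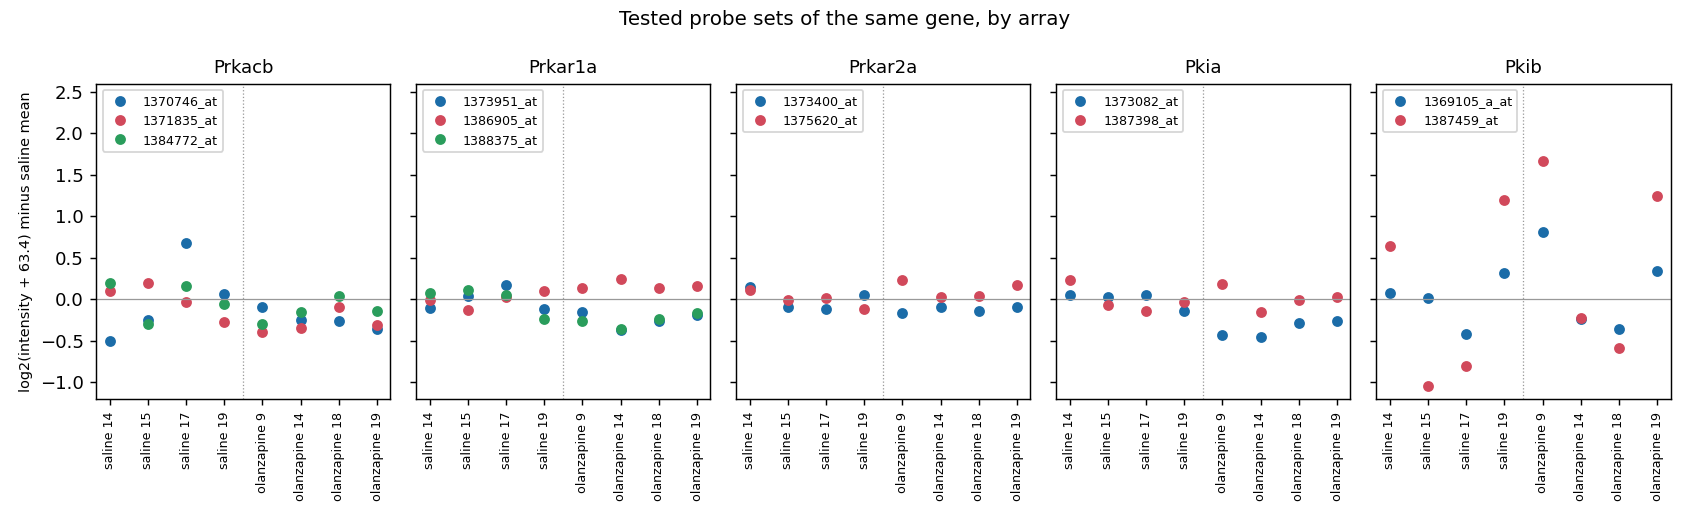
Log2(intensity + 63.4) minus the probe set's saline mean on the vertical axis for each array along the horizontal axis (saline left and olanzapine right of the dotted line), for the 5 PKA genes with more than 1 tested probe set, each probe set in its own colour. Prkar1a 1386905_at lies above 0 in every olanzapine array while 1373951_at and 1388375_at lie below, and the Pkib 1387459_at points spread over more than 2 log2 units within each group.

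Members under the filter numbered 21 probe sets and included every probe set of 10 genes: Adcy8, Adcy10, Pde3a, Pde4c, Pde5a, Pde6a, Pde6b, Pde7b, Pde8b and Pde12. Their intensities ran from 4.07 to 239 over all arrays, and no difference is drawn from them. Among them was a second probe set each of Pde10a and Pde1b, genes whose brighter probe sets were tested.

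Other genes of the pathway were taken from lists of known pathway genes, with 1 probe set per gene, the brightest. In 0 of these lists did a gene pass the adjusted test. Over all tested probe sets 56.0% were above 0 and 8.32% had an unadjusted limma p under 0.05. Of 16 tested genes of A-kinase anchoring proteins, which tether PKA near its targets, 7 were above 0, with a median of -0.046. At an unadjusted p under 0.05 were Akap13, higher by 0.44 (SE 0.18), and Akap7 and Akap11, lower at -0.22 (SE 0.08) and -0.24 (SE 0.11). The latter genes were among the brightest 5%, and their differences were -0.042 and -0.16 after quantile normalization. Of 13 other effectors and CREB factors, 4 were above 0, with a median of -0.042. Arpp21, a PKA substrate gene among the brightest 5%, differed by -0.28 (SE 0.09) as deposited and -0.17 after quantile normalization. The cyclic AMP sensor genes Rapgef3 and Rapgef4 differed by -0.36 (SE 0.22) and 0.14 (SE 0.10).

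Of 6 tested genes of Gs and Gi class alpha subunits, which set cyclase activity, 2 were above 0. Gnaz, an inhibitory alpha subunit gene, differed by -0.29 (SE 0.08) as deposited and -0.23 after quantile normalization and is also among the brightest 5%, and Gnai1 and Gnas by 0.31 (SE 0.22) and -0.10 (SE 0.13). Of 17 known CREB target genes 11 were above 0 (56.0% of all tested probe sets were) and 6 below, with a median of 0.22. An unadjusted limma p under 0.05 was found for 3, Nr4a1 (1.02), Fosb (0.55) and Nr4a3 (0.44), against 8.32% of all. These 3 are immediate early genes that neuronal firing induces. Their values were known when the list was chosen, so they are no independent evidence. Fos differed by 0.23 (SE 0.33). Below 0 were Bdnf (-0.21), Sst (-0.11), Egr1 (-0.093), Junb (-0.060), Dusp1 (-0.030) and Sik1 (-0.0084). Egr1 and Dusp1 are among the brightest 5% and were at 0.18 and 0.015 after quantile normalization. On that scale 13 of the 17 were above 0 (9541 of all 18625 tested probe sets were), with a median of 0.18. There 5, all higher, had an unadjusted limma p under 0.05, against 6.36% of all.

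Markers of cell types were set beside these values. Of the excitatory neuron markers 5 of 6 on the array were left by the filter, and of the interneuron markers 7 of 7. Of the striatal medium spiny neuron markers 6 of 10 were left, with Drd2, Adora2a, Gpr6 and Syndig1l below it and with a summed intensity of 2778 to 3664 in saline and 2746 to 3446 in olanzapine. Meningeal markers were above 0 in 8 of 8 tested genes, and their summed intensity was 2629 to 3357 in saline and 3459 to 9465 in olanzapine, with Slc6a13 under the filter. Astrocyte markers were below 0 in 7 of 8 tested genes, and their summed intensity was 43307 to 50239 in saline and 39139 to 44915 in olanzapine. Slc1a3, Gja1, Aqp4 and S100b of that list are among the brightest 5%, its median was -0.15 as deposited and -0.053 after quantile normalization, and Gja1 turned from -0.22 to 0.094. Oligodendrocyte markers were above 0 in 7 of 8 tested genes, where 56.0% of all tested probe sets were. They ran from -0.15 for Cldn11 to 0.51 (SE 0.24) for Mobp, with a median of 0.057. Their summed intensity was 15647 to 26940 in saline and 17238 to 25006 in olanzapine. Endothelial markers were above 0 in 5 of 6, from -0.23 for Cldn5 to 0.38 (SE 0.11) for Pecam1, with a median of 0.13. Summed endothelial marker intensity was 3197 to 3771 in saline and 3671 to 3999 in olanzapine. Microglia markers were above 0 in 4 of 6 tested genes as deposited and in 2 after quantile normalization. Of 4 choroid plexus markers 1 was left by the filter, with Ttr below it. The part of any of these cell types in the members' differences was not tested. In dissected tissue, fewer cells of a type and less RNA per cell cannot be told apart.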

How the data were processed

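The authors deposited 1 linear intensity per probe set for 31099 probe sets (57 controls) on 8 arrays. Trimmed by 2% at each end, their means were 500.1 to 500.2, so these intensities had been brought to a common scale before deposit. Software and background correction were not given in the sources used here. Per the labels, 4 animals of each group were used, and the number in each array's title is taken as the animal's. Median intensities were 159 to 191, and the number of arrays limits the precision. Symbols come from the platform's 2016 annotation, updated for the lists through RefSeq (GRCr8).

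The 25th percentile of all values, 63.4, was added before log2, and probe sets at or below the 40th percentile of mean log2 value were left out. The comparison used limma 3.58.1 in R 4.3.3 (lmFit, eBayes with trend, two-sided, no covariates). The fit was tested on simulated data with independent noise, where it called 47.2% of 1.5-fold and 86.4% of 2-fold changes. Of all its calls there 6.52% were false. These shares are averages over probe sets of all brightness, with 200 changes planted per run. The largest tested member difference, for Pde1c, was 1.50-fold on the log2 scale used, with mean intensities of 95.2 in saline and 168 in olanzapine. Its probe set was near the filter's limit, and the share called for such dim probe sets was not computed. Named members were those not overlapping between groups, the 10 smallest p-values, the brightest and most different of each role, all PKA genes, several cyclase and phosphodiesterase genes known from cortex or striatum, and the 3 smallest p-values of each pathway list. Members and lists were chosen with earlier results of these data known. Alternatives were other normalizations, added values, filters, variance models, a replicate block and leaving out each array. Gaps between probe sets were compared by exact permutation, a test added after the values were seen.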

Additional observations from a re-analysis of the deposited data

Results flagged for a closer look

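Among the 80 groups of 4 arrays examined (40 members, 2 treatments), 5 held an array far from the other 3, where chance gives about 1 in 20. Saline 15 was far below the other saline arrays in Pde1a (8.06 against 226 to 287) and far above them in Pde6g (182 against 104 to 113). Saline 17 was low in Pde1b 1384203_at (1035 against 1416 to 1473). Saline 19 was low in Pkia 1373082_at (10652 against 11989 to 12221) and in Prkar1a 1388375_at (10621 against 13023 to 13516).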

How the results depend on the processing

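No member passed the adjusted test under any alternative other than leaving out saline 19. Against 8 members at an unadjusted p under 0.05, there were 4 after quantile normalization, 4 after cyclic loess, 5 with a plain two-sample test, 4 with a variance model without trend and 6 to 9 when 1 array was left out; the cause was not tested. Leaving out 1 array gave 0 to 107 called probe sets in all and 0 to 2 called members: 107 and 2 (Pkia 1373082_at and Prkar1a 1388375_at) without saline 19, 1 and 0 without olanzapine 9. With animal number as a replicate block, 6 probe sets and 0 members were called and 1 member had an unadjusted p under 0.05, Adcy4 at -0.82, while Pde9a was at 0.026. That fit rests on the 4 arrays numbered 14 and 19, which are separate animals, so the arrays were not treated as paired. Deviations of same-numbered arrays correlated at 0.075 and 0.11, and those of differently numbered arrays at -0.13 to 0.13. So few same-numbered pairs cannot settle pairing.

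Several differences turned sign, among them 0.53 for Pkib 1387459_at, 0.35 for Pde1a and 0.23 for Pde6h. With the replicate block they were -0.072 for Adcy3, 0.070 for Pde4a, 0.056 for Pde4b, -0.12 for Pde6h, -0.11 for Pde1a, -0.14 for Pde3b, -0.17 for Pkia 1387398_at, and -0.15 and -0.41 for Pkib. After quantile normalization they were -0.0057 for Adcy3, 0.049 for Pde4b, -0.049 for Pde3b and -0.043 for Pkia 1387398_at, and after cyclic loess -0.010, 0.046, -0.057 and -0.053. Median centring gave -0.025 for Adcy2, -0.015 for Adcy3, -0.059 for Pde3b and -0.051 for Pkia 1387398_at. Pde3b was at -0.0020 with 16 added before log2 and at -0.0060 with array weights, which gave -0.017 for Pkia 1387398_at. The gap between Prkacb 1371835_at and 1370746_at shifted by 0.0052 with 16 added, 0.15 after quantile normalization and 0.16 after cyclic loess, and that between Prkar1a 1388375_at and 1373951_at by 0.016 and 0.0058 after these normalizations.

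Leaving out 1 array at a time, differences ran from -0.039 to 0.14 for Adcy2, -0.0049 to 0.14 for Adcy3, -0.16 to 0.040 and -0.18 to 0.059 for Adcy5, -0.22 to 0.018 for Adcy6, -0.16 to 0.053 for Pde4a, -0.079 to 0.17 for Pde4d 1370569_at, -0.19 to 0.060 for Pde6g, -0.12 to 0.43 for Pde6h, -0.083 to 0.21 for Pde10a, -0.18 to 0.58 for Pde1a, -0.11 to 0.12 for Pde3b, -0.047 to 0.090 for Pkia 1387398_at and -0.088 to 0.30 for Pkib 1369105_a_at. Shifts of gaps ran from -0.20 to 0.16 for Adcy5, -0.010 to 0.26 for Pde4d, -0.21 to 0.019 and -0.28 to 0.16 for Prkacb, and -0.054 to 0.047 for Prkar1a 1388375_at against 1373951_at. Without turning sign, the range was -0.45 to -0.051 for Adcy4, 0.088 to 0.30 for Pde4d 1392968_at, 0.16 to 0.37 for Pde9a, 0.15 to 0.93 for Pkib 1387459_at, -0.24 to -0.070 and -0.41 to -0.016 for Prkacb 1384772_at and 1370746_at, and -0.18 to -0.060 for Prkar1b. The number of arrays limits the precision of all these values.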

Other observations

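Of the 21 members under the filter, 2 had groups that did not overlap, against 2.81% of all 12417 probe sets under it. Adcy10, the soluble cyclase that bicarbonate activates, was at 5.14 to 5.82 in saline and 8.17 to 15.8 in olanzapine. Pde7b, a striatum-rich enzyme specific for cyclic AMP, was at 4.07 to 8.33 in saline and 9.75 to 27.5 in olanzapine. These intensities lay far under the filter, and neither gene was tested.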
